A study of Mus musculus with 15 samples.

Results

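The genes described here are 10 components of the muscle protein-breakdown machinery, chosen by name from the 55536 genes of the count table: the ubiquitin ligases Fbxo32, Trim63, Trim54 and Trim55, the autophagy genes Sqstm1, Map1lc3a, Map1lc3b, Gabarapl1 and Bnip3, and the lysosomal protease gene Ctsl. The RNA came from nuclei of mouse ventricular muscle sorted for Pcm1, a centriolar satellite protein whose antibody marks cardiomyocyte nuclei, and was sequenced without ribosomal RNA. The 15 libraries carry the genotype label Pgr_KO or Pgr_WT (Pgr encodes the progesterone receptor) and a sex: 4 females and 4 males labelled knockout, 3 females and 4 males labelled wild type. The labels name no treatment, strain background, allele design or separate animals, and give 3 and 6 in the tissue field without a unit, so p-values measure only the spread between these samples, which may be technical. The series title places the work in sex-specific maturation of the heart under progesterone receptor control.

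Muscle removes its proteins mainly by the proteasome and by autophagy. In the ubiquitin-proteasome route a ligase tags a chosen protein with ubiquitin, and the proteasome then degrades it. In autophagy a membrane carrying lipid-linked proteins of the LC3 and GABARAP family closes around cargo, which receptor proteins tether to it, and the resulting vesicle fuses with a lysosome where proteases such as cathepsin L digest the content. FoxO transcription factors, active when insulin signalling is low, are known to drive Fbxo32, Trim63 and several autophagy genes in wasting muscle, and hypoxia-inducible factors are known to drive Bnip3.

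The start regions of 4 of these genes are shown because they carry, or in Sqstm1 lack, letters that such factors are known to read. They come from RefSeq, on build GRCm38.p6, and run from 250 bases before to 50 bases after the annotated start, 5′ to 3′ on the strand of the gene. Of the 10 genes, 7 had an entry. The 3 words searched on both strands were GTAAACA, a FoxO site, CACGTG, an E-box of the kind read by TFEB and clock factors, and ACGTG, the core of the hypoxia site, which lies inside the E-box on both strands. Capitals mark a match. Trim63 is on chromosome 4, plus strand (chr4:134314870-134315169), Sqstm1 on chromosome 11, minus strand (chr11:50210771-50211070), Bnip3 on chromosome 7, minus strand (chr7:138909457-138909756), and Ctsl on chromosome 13, minus strand (chr13:64370471-64370770).
Trim63: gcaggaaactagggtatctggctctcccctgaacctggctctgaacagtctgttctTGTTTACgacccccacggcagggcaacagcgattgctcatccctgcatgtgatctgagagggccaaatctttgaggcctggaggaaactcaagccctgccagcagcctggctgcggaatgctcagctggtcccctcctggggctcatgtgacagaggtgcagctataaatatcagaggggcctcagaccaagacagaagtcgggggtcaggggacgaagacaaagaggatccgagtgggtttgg
Sqstm1: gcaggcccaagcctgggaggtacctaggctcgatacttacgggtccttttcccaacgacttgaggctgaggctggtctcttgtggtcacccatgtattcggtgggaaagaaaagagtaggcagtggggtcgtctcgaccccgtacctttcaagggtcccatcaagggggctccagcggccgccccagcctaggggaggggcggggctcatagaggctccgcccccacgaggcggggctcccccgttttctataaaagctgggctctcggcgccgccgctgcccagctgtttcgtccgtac
Bnip3: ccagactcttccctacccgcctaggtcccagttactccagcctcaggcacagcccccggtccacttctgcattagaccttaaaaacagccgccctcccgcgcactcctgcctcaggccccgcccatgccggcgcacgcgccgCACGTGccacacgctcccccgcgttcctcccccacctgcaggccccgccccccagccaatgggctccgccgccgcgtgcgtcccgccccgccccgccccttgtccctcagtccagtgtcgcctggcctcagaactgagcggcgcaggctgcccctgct
Ctsl: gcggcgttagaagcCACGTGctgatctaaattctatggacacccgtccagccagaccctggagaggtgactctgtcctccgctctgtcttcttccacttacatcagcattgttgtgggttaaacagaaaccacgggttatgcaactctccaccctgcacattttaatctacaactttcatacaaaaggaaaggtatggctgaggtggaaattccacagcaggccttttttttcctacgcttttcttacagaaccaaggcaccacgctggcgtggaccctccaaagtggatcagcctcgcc

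Among the 7 start regions, the exact word GTAAACA was found in Trim63 alone, reversed as TGTTTAC with the first base at position -194 from the start. Of 32851 start regions of this length, 3.65% hold that word. Variants of it were not searched. The E-box was found in Bnip3 at position -108 and in Ctsl at position -236, against 7.15% of all start regions, and the hypoxia core was found in the same places only, against 19.6%. The Ctsl window (64370471 to 64370770) lies wholly inside the gene as counted (64359337 to 64370890, minus strand). Its RefSeq start therefore differs from the start of the counted gene, and position -236 refers to the RefSeq start. None of the words was found in the windows of Sqstm1, Trim54, Map1lc3b and Gabarapl1. A match is a description of letters in this window and says nothing about binding.

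Total counts were 24.4 to 139.4 M per library. Reads of Pgr itself ran against the genotype labels: all 8 libraries labelled knockout held 6.10 to 12.5 CPM (read counts normalised to library size, with edgeR TMM scaling), whereas the 7 labelled wild type held at most 0.267 CPM. Directions below are therefore those of the labels, not of receptor loss. The cardiomyocyte markers summed to 48131 to 79069 CPM, with all 12 detected in every library. The libraries were split into 6 high and 9 low ones at the widest gap in Pecam1, Dcn and Rgs5, markers of endothelium, fibroblasts and mural cells. Summed markers were 397 to 804 against 25.3 to 91.3 CPM for endothelium, 797 to 2081 against 73.6 to 283 CPM for fibroblasts and 60.5 to 130.5 against 13.5 to 45.2 CPM for leukocytes, where Itgam had 0 reads everywhere. Mural markers overlapped, at 665 to 787 against 650.2 to 856 CPM, although Rgs5 alone stood at 29.1 to 80.9 against 6.22 to 13.4 CPM. The overlap concerns the summed list only, and whether the classes differ in mural cell content was not tested. Pecam1, Dcn and Rgs5 are themselves among the summed markers, so part of the endothelial and fibroblast separation follows from the split. Every group holds at least 1 high library: replicates 1 and 2 of both knockout-labelled groups and replicate 1 of both wild-type-labelled ones. Replicate 2 of the knockout-labelled females, the wild-type-labelled females and the wild-type-labelled males also held reads of the other sex (Y-linked Ddx3y at 2.11 and 1.79 CPM in these females, Xist at 54.2 CPM in this male).

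Counts cover whole gene bodies, introns included, so a level describes nuclear RNA of mature and unspliced form together. Per kilobase (kb) of gene body, Trim55 and Trim63 came first (mean ± SD, n = 15). Trim55 (chromosome 3, 19644474 to 19692421), a titin-associated RING finger protein of the M-band, stood at 14.98 ± 2.98 CPM per kb. Trim63 (chromosome 4, 134315120 to 134329629), known as MuRF1, which ubiquitinates myosin heavy chain and other sarcomere proteins, stood at 10.3 ± 1.98 CPM per kb. Fbxo32 (chromosome 15, 58175879 to 58214932), known as atrogin-1, the F-box subunit that brings substrates to an SCF ligase, followed at 5.63 ± 1.30 CPM per kb.

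Sqstm1 (chromosome 11, 50199366 to 50210827), which encodes the cargo receptor p62, was level with Fbxo32 at 5.15 ± 0.922 CPM per kb. Trim54 (chromosome 5, 31116712 to 31137630), the MuRF family member that binds microtubules and the Z-disc, had 4.04 ± 0.883 CPM per kb. Map1lc3a (chromosome 2, 155276297 to 155278073), a form of LC3, had 3.90 ± 1.09 CPM per kb. The lower end held Gabarapl1 (chromosome 6, 129533160 to 129542346), a GABARAP family protein of the autophagosome, at 2.78 ± 0.546, Bnip3 (chromosome 7, 138890836 to 138909519), a mitophagy receptor of the outer mitochondrial membrane, at 2.20 ± 0.427, and Ctsl (chromosome 13, 64359337 to 64370890) at 1.66 ± 0.571 CPM per kb.

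In this order the ranges of all neighbours overlapped. Within libraries the order was firmer for some pairs: Trim63 was above Fbxo32 in 15 of 15 libraries, by 1.31 to 2.48 times, and Trim55 above Trim63 in 12 of 15, by 0.969 to 2.10 times. Fbxo32 was above Sqstm1 in only 9 of 15, so these 2 cannot be ranked. The order holds per kb of gene body only. Without division by length (39.05 kb for Fbxo32, 14.51 kb for Trim63), Fbxo32 had the higher mean, 220 ± 50.9 against 150 ± 28.7 CPM. The ratio of Fbxo32 to Trim63 per kb was 0.576 ± 0.134 and 0.526 ± 0.0398 in females and males labelled knockout and 0.457 ± 0.0836 and 0.621 ± 0.103 in females and males labelled wild type, with overlapping ranges.

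**Figure D1:**
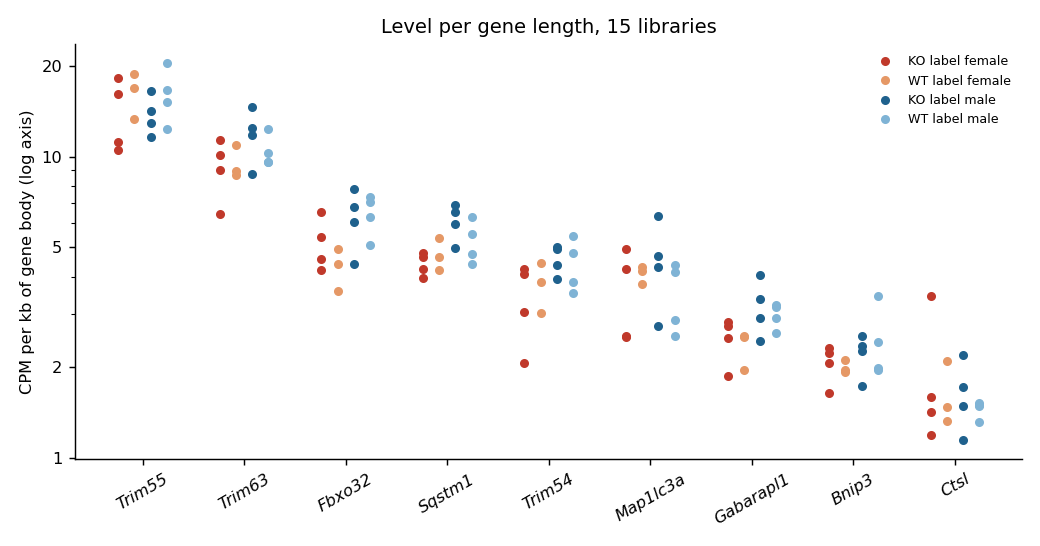
Level of each counted gene per kb of gene body (log axis), one point per library, coloured by group. Trim55 and Trim63 lie highest, at means of 14.98 and 10.3 CPM per kb, and the ranges of most groups overlap in each column.

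Map1lc3b, the most studied LC3 gene, had 0 reads in all 15 libraries. A floor of 3 counts corresponds to 0.0219 to 0.117 CPM, and the annotation around the gene bears on its count. Map1lc3b (chromosome 8, 121590361 to 121598760, plus strand, 89.5% exon) lies wholly inside the annotated gene Gm20388 (119910841 to 124345722, same strand), a model of 4434882 bases that held 81481 reads, at 59.3 to 116 CPM. All 36 protein-coding genes inside Gm20388 on its strand, Map1lc3b included, had 0 reads, whereas none of the 35 on the opposite strand did. Across the table, 465 of 465 protein-coding genes wholly inside another gene of the same strand had 0 reads. The share was 16.8% for those inside a gene of the opposite strand only and 12.8% for those inside no other gene. The zero of Map1lc3b is not read as its level, and the gene entered no test.

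**Figure D2:**
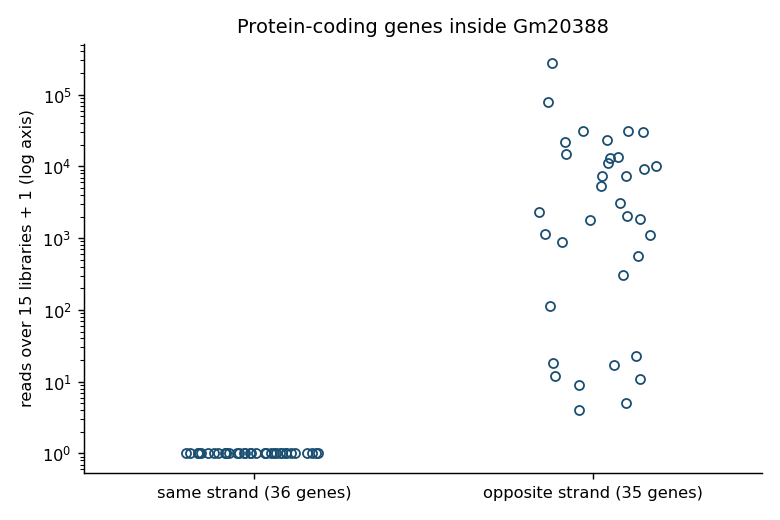
Reads over the 15 libraries plus 1 (log axis) of protein-coding genes lying wholly inside Gm20388, by strand. The 36 genes on its strand, Map1lc3b among them, all have 0 reads, and the 35 on the other strand all have reads.

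The same holds on a small scale within 3 other genes. BC002189 inside Trim55, Gm44243 inside Gabarapl1 and Gm49230 inside Ctsl are same-strand models with 0 reads, covering 1.25%, 7.53% and 3.42% of their hosts. Opposite-strand neighbours overlap Fbxo32, Trim54, Sqstm1, Bnip3, Gabarapl1 and Ctsl. The largest of these overlaps is 19.9% of Bnip3, by Gm45507, which held 164 reads against 34468 for Bnip3. The library kit keeps the strand. A strand abbreviation in the name of the deposited table is explained by no label, so the strand setting of the counting is not stated here as fact.

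The other 9 genes passed the low-count filter. Their lowest library held 173 reads (Map1lc3a) and their highest 92809 (Trim55). The highest library exceeded the lowest by 1.75 times for Sqstm1, the steadiest, and by 2.99 times for Ctsl, the most variable. The spread left between libraries of a group (biological coefficient of variation in edgeR) was 15.8% for Sqstm1 and 18.99% to 22.2% for Trim63, Gabarapl1, Fbxo32, Bnip3, Trim55 and Trim54. It was 30.6% for Map1lc3a and 30.9% for Ctsl, against a median of 26.2% over all tested genes.

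**Figure D3:**
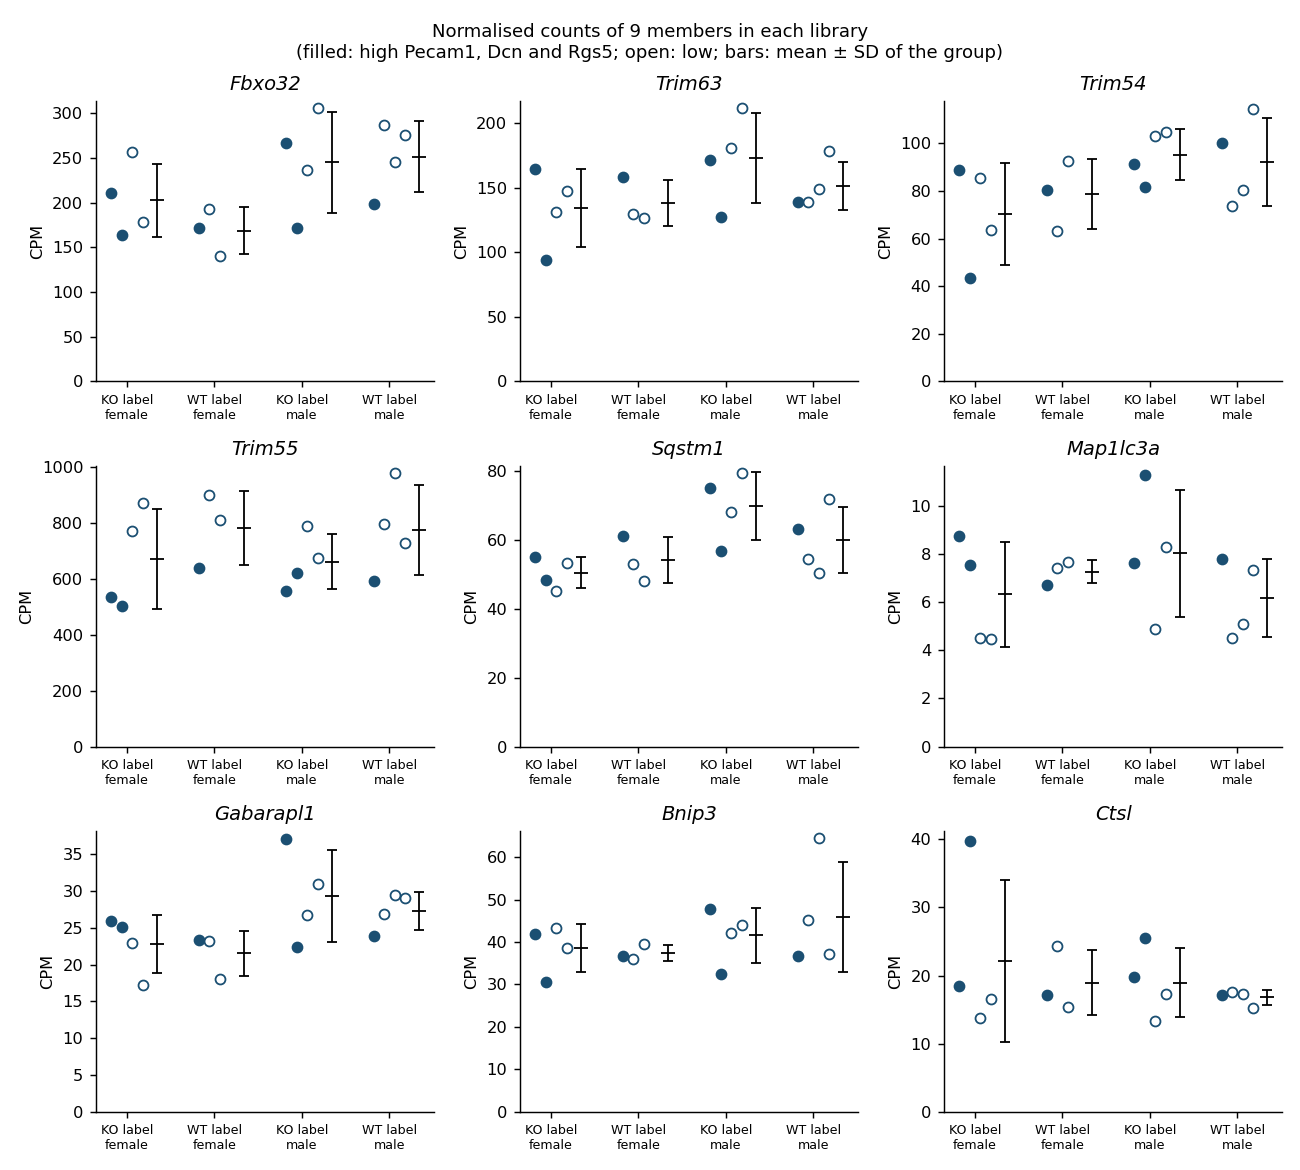
Normalised counts (CPM, axis from 0) of the 9 counted genes in each library, by group, with the group mean ± SD. Filled points are the 6 libraries with high Pecam1, Dcn and Rgs5, open points the 9 low ones. Trim55 lies at 505 to 638 CPM in the former and 676 to 980.0 CPM in the latter.

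The first comparison asks whether the genotype label changes these genes in female nuclei. None of the 9 passed between the labels in females, by edgeR's quasi-likelihood test with Benjamini-Hochberg adjustment over 17455 genes (all adjusted p = 1). That is the rate of the whole table, where 0% of genes passed. In these females Pgr did not pass either, at 8.69 to 12.5 CPM under the knockout and at most 0.267 CPM under the wild-type label. A missing call here therefore does not show equal levels. No member reached an unadjusted p below 0.05, and 303 genes of the table did. Limma-voom and DESeq2 called 1 and 3 genes in the table and 0 members.

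In the ligases, the values of females under either label covered the same ground. Fbxo32 read 211, 164, 256 and 178 CPM under the knockout label and 172, 193 and 140.3 CPM under the wild-type label. The log2 fold change (knockout minus wild-type label) was 0.26 ± 0.21 (SE), with a 95% interval of -0.18 to 0.71. It was 0.11 without replicate 3 of the knockout-labelled females and 0.46 without the 3 libraries holding other-sex reads. The highest value lay under the knockout label and the lowest under the wild-type label, but the groups overlapped, as they did for all 9 genes.

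Trim63 gave -0.043 ± 0.19, Trim54 -0.16 ± 0.23 and Trim55 -0.22 ± 0.22 on the log2 scale. Among the autophagy genes, Sqstm1 was at -0.10 ± 0.15, Map1lc3a at -0.20 ± 0.30, Gabarapl1 at 0.085 ± 0.18 and Bnip3 at 0.048 ± 0.19. With low-marker libraries alone, Map1lc3a was at -0.75 (adjusted p = 1, edgeR). Ctsl was at 0.22 ± 0.32, a mean that 1 library set: replicate 2 of the knockout-labelled females stood at 39.7 CPM, above 18.5, 13.8 and 16.5 CPM in the other libraries of the group, and without it the fold change was -0.22. The 95% intervals differed in width, from -0.41 to 0.21 for Sqstm1 to -0.84 to 0.44 for Map1lc3a and -0.46 to 0.91 for Ctsl.

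The same question in males had the same answer in the call. None of the 9 genes passed (smallest adjusted p 0.999, edgeR), beside 0.0115% of all genes, and none reached an unadjusted p below 0.05, which 247 genes did. DESeq2 called 4 and limma-voom 2 genes in the table, and neither called a member. Map1lc3a had the largest estimate, 0.38 ± 0.28, with 7.63, 11.3, 4.89 and 8.29 CPM under the knockout label and 7.78, 4.51, 5.09 and 7.34 CPM under the wild-type label. These values interleave, and the highest is replicate 2 of the knockout-labelled males, a library of the high marker class.

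Sqstm1 followed at 0.22 ± 0.14 (95% interval -0.071 to 0.51). It read 75.3, 57.0, 68.3 and 79.5 CPM under the knockout label and 63.4, 54.4, 50.5 and 72.1 CPM under the wild-type label, again overlapping. Within pairs of same-numbered males, deviations from the group means correlated at 0.169 to 0.699, which is weak at the low end. Sqstm1 was higher under the knockout label in 4 of 4 such pairs, and Trim55 in 0 of 4. The share of all genes with such counts was not computed. With the replicate number as a block the Sqstm1 estimate was 0.22 ± 0.086 (unadjusted p = 0.0235, adjusted p = 0.918, edgeR). No other member reached an unadjusted p below 0.05 in males with the block. The ligases gave -0.037 ± 0.19 (Fbxo32), 0.19 ± 0.18 (Trim63), 0.047 ± 0.21 (Trim54) and -0.23 ± 0.20 (Trim55). Gabarapl1 gave 0.10 ± 0.17, Bnip3 -0.14 ± 0.18 and Ctsl 0.17 ± 0.29. Across the table, 1.92% of genes in females and 1.6% in males had label groups that did not overlap in either direction, and no member was among them in either sex.

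Whether the label difference itself depended on sex was tested by the interaction. None of the 9 genes passed (0% of all genes did), and none reached an unadjusted p below 0.05, while 435 genes of the table did. DESeq2 called 1 gene and limma-voom 0. The estimates furthest from 0 were -0.58 ± 0.41 for Map1lc3a, -0.32 ± 0.20 for Sqstm1 and 0.30 ± 0.28 for Fbxo32. Map1lc3a was at -0.97 with low-marker libraries alone. With the replicate number as a block Sqstm1 was at -0.38 (unadjusted p = 0.0119, adjusted p = 0.668, edgeR). Fbxo32 was at 0.15 without replicate 3 of the knockout-labelled females. Averaged over the sexes, the label difference furthest from 0 was -0.23 ± 0.15 for Trim55 (adjusted p = 1), and -0.25 with the replicate number as a block (unadjusted p = 0.0385, adjusted p = 1, edgeR). It was -0.13 with a marker class term, -0.13 with low-marker libraries alone and -0.10 without the 3 libraries holding other-sex reads. Of the 6 high-marker libraries, in which Trim55 was low, 4 carry the knockout and 2 the wild-type label. The part of the marker class in the label difference of Trim55 was not tested. Of all genes 0.0172% passed in that average, by edgeR, 224 reached an unadjusted p below 0.05 without a member among them, and DESeq2 and limma-voom called 7 and 3 genes.

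**Figure D4:**
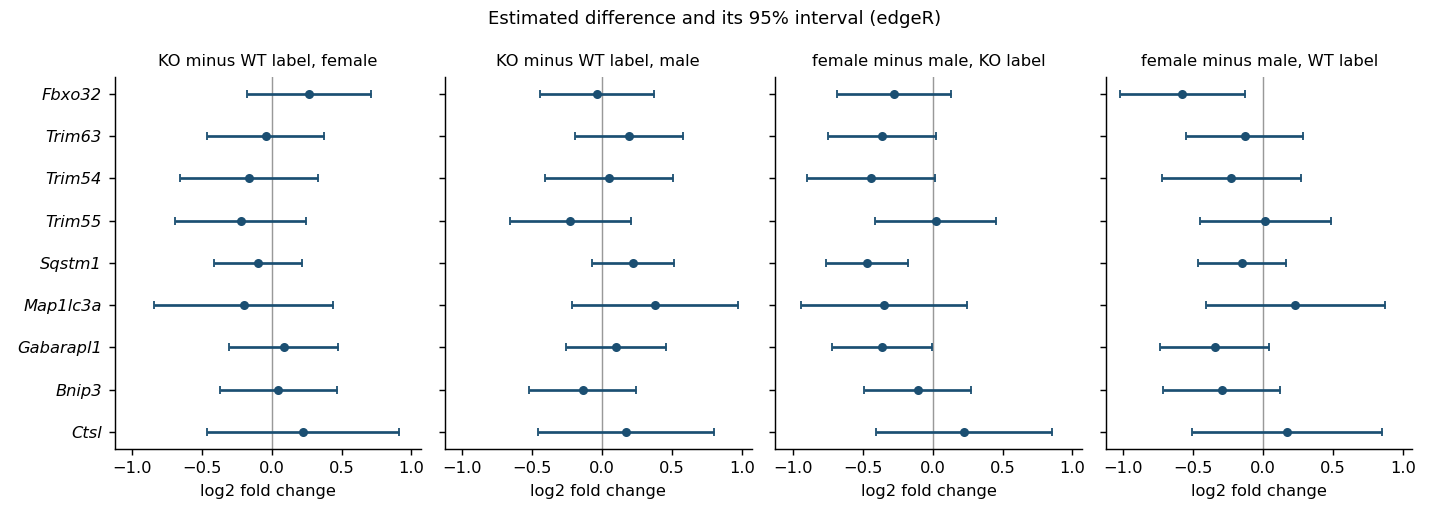
Log2 fold change of each counted gene with its 95% interval from edgeR in 4 comparisons. Every interval between the labels spans 0. Between the sexes, the intervals of Sqstm1 and Gabarapl1 under the knockout label and of Fbxo32 under the wild-type label lie below 0, and none of them passed after adjustment.

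Females were set against males within each label, and here the estimates lay further from 0, mostly below it. Under the knockout label 0 of the 9 genes passed (edgeR, smallest adjusted p 0.724), beside 0.0229% of all genes. Sqstm1 and Gabarapl1 had an unadjusted p below 0.05, as 1112 genes of the table did. DESeq2 called 57, limma-voom 10 and edgeR with the replicate number as a block 13 genes in the table, with no member among them. With the block, Sqstm1, Trim54 and Trim63 had an unadjusted p below 0.05. The median of the 9 estimates was -0.35, and 7 of 9 were lower in females, against a median of 0.015 and 48% lower over all tested genes.

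Sqstm1 stood lowest in the females labelled knockout, at 55.1, 48.5, 45.4 and 53.3 CPM, against 75.3, 57.0, 68.3 and 79.5 CPM in the males. All 4 females lay below all 4 males. The log2 fold change was -0.47 ± 0.14 (95% interval -0.76 to -0.18, unadjusted p = 0.00394, adjusted p = 0.724 by edgeR). With the replicate number as a block it was -0.46 ± 0.087 (unadjusted p = 0.000179, adjusted p = 0.12, edgeR). Over the alternatives the adjusted p ranged from 0.0872 with DESeq2 to 1 without male replicate 4, where the fold change was -0.40. Of all genes, 1.92% were lower in females without overlap under this label, and Sqstm1 was the only member among them.

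Gabarapl1 read 25.9, 25.2, 23.0 and 17.2 CPM in these females and 37.2, 22.4, 26.7 and 31.0 CPM in the males, a difference of -0.36 ± 0.17. The groups overlapped through male replicate 2. Trim54 was at -0.44 ± 0.21 and Trim63 at -0.36 ± 0.18, and in both the lowest of all 15 libraries was female replicate 2, at 43.2 and 93.6 CPM. Without that library the estimates were -0.26 and -0.23.

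Fbxo32 was at -0.28 ± 0.19, Map1lc3a at -0.35 ± 0.28 and Bnip3 at -0.11 ± 0.18. Trim55 was at 0.021 ± 0.20 and Ctsl at 0.22 ± 0.29, the only 2 above 0. Ctsl turned to -0.22 without female replicate 2.

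Under the wild-type label, too, 0 of 9 genes passed (edgeR, all adjusted p = 1), beside 0% of all genes. Xist did not pass either, at 1266 to 1991 CPM in these females and 0.335 to 54.2 CPM in these males. A missing call in this comparison therefore does not show equal levels. Fbxo32 alone of the members had an unadjusted p below 0.05, as did 364 genes of the table, and DESeq2 and limma-voom called 14 and 6 genes but no member. Of the 9 estimates, 6 were below 0, with a median of -0.15, against 50.7% lower and a median of -0.00317 over all genes.

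Fbxo32 read 172, 193 and 140.3 CPM in the females labelled wild type and 198, 287, 245 and 275 CPM in the males. The groups did not overlap, the closest pair being the female of replicate 2 and the male of replicate 1. The log2 fold change was -0.58 ± 0.21 (95% interval -1.03 to -0.13, unadjusted p = 0.0151, adjusted p = 1 by edgeR), and -0.68 to -0.46 when 1 library was left out. Both females and males labelled knockout (164 to 256 and 172 to 306 CPM) covered the span between these groups.

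Gabarapl1 was likewise lower in females without overlap, at 23.3, 23.2 and 18.05 CPM against 23.9, 26.8, 29.5 and 29.1 CPM, a difference of -0.35 ± 0.18. These 2 of 9 members stand beside 1.89% of all genes lower in females without overlap. Bnip3 was at -0.30 ± 0.19, with the highest of all libraries, 64.4 CPM, in male replicate 3. The remaining estimates were -0.23 ± 0.23 for Trim54, -0.13 ± 0.19 for Trim63, 0.016 ± 0.22 for Trim55, -0.15 ± 0.15 for Sqstm1, 0.23 ± 0.30 for Map1lc3a and 0.17 ± 0.32 for Ctsl. The 2 comparisons of the sexes use different libraries, and whether they differ is the interaction given above.

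The members were also set side by side by marker class. Trim55 read 537, 505, 558, 621, 638 and 591 CPM in the 6 high-marker libraries, and 771, 871, 789.5, 676, 900.2, 810.3, 797, 980.0 and 729 CPM in the 9 low ones. All 6 lay below all 9, with a difference in mean log2 CPM of -0.50. Of all genes, 14.6% of genes had marker classes that did not overlap in either direction, and Trim55 was the only member among them.

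Map1lc3a and Ctsl leaned the other way, by 0.48 and 0.41, with overlap. The medians of Map1lc3a were 7.70 CPM in the high and 5.09 CPM in the low libraries, and those of Ctsl 19.2 and 16.5 CPM. The remaining members lay between -0.24 (Fbxo32) and 0.081 (Gabarapl1). The order of the 9 genes in this difference was set beside the share of the gene body annotated as exon, after the values were seen. It followed that share at the ends: Trim55 has the smallest, 5.55%, and Map1lc3a and Ctsl the largest, 66.5% and 56.2%. Among the genes with the next smallest shares it did not. Trim54, with 6.865%, was at -0.12, above Bnip3 (12.1%, -0.20), Fbxo32 (17.9%, -0.24) and Trim63 (19.6%, -0.13). Over all tested protein-coding genes the median difference was -0.022 for the 4308 genes with less than 10% exon, -0.054 for the 3672 with 10% to 20%, 0.032 for the 4301 with 20% to 50% and 0.13 for the 1758 with at least 50%, so it did not rise at every step. The libraries of a class share their content of other cells, and the part of that content in these differences was not tested. In bulk RNA, fewer cells of a type and less RNA per cell cannot be told apart.

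**Figure D5:**
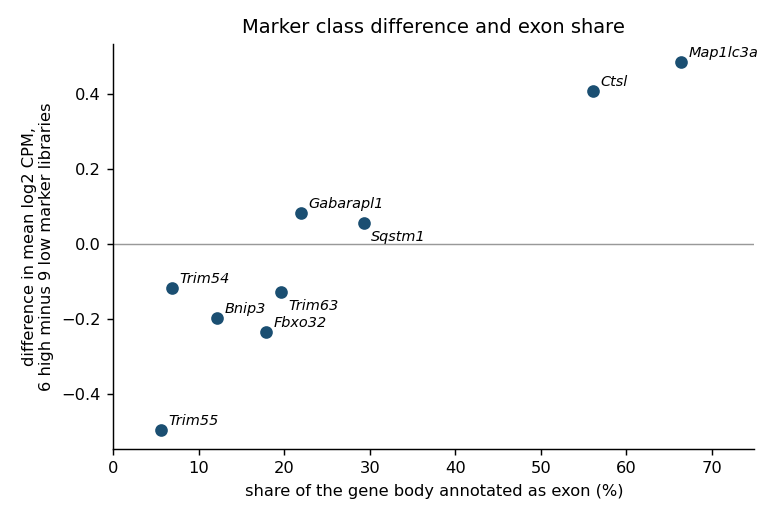
Difference in mean log2 CPM between the 6 high-marker and 9 low-marker libraries, against the share of the gene body annotated as exon, for the 9 counted genes. Trim55, with 5.55% exon, is lowest at -0.50, and Map1lc3a and Ctsl, with 66.5% and 56.2%, are highest at 0.48 and 0.41.

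A single library carried several extremes. Replicate 2 of the knockout-labelled females held the lowest value of Trim54, Trim63, Trim55 and Bnip3 and the highest of Ctsl. It also had the lowest cardiomyocyte sum, 48131 CPM, the highest endothelial and fibroblast sums, 804 and 2081 CPM, and reads of the other sex. The part of these in its values was not tested. At the other end, replicate 4 of the knockout-labelled males, the deepest library at 139.4 M counts, held the highest Fbxo32 (306 CPM), Trim63 (211 CPM) and Sqstm1 (79.5 CPM).

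How the members moved together was read within each marker class, as the classes stand apart. Of 36 pairs in 2 classes, 72 relations, 0 passed an adjusted p below 0.05 by an exact permutation test of Pearson's r. Libraries were permuted freely within a class, so differences by label, sex or replicate number can enter these relations. The closest was Trim63 with Sqstm1 in the 9 low libraries, r = 0.94 and rho = 0.80 (exact permutation p = 0.000741 and 0.0138, adjusted p = 0.05 and 0.207), and r = 0.87 without the 2 libraries farthest from the median. Fbxo32 with Bnip3 in the 6 high libraries gave r = 0.94 (exact p = 0.00139, adjusted p = 0.05) and 0.72 without the 2 farthest. That p is the smallest this test can give with 6 libraries. Fbxo32 with Gabarapl1 in the low libraries gave r = 0.87 (exact p = 0.00311, adjusted p = 0.0747), and 0.65 without them.

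Genes outside the set with the most similar pattern were taken from 11340 candidates by r of log2 CPM over 15 libraries, centred within marker class. These values share libraries and are descriptions. Trim54 was closest to Klc4 (r = 0.97), a kinesin light chain, with Ntng2 and Pak6 next. Ctsl was closest to Degs1 (0.96), a sphingolipid desaturase, then to the ribosomal protein gene Rpl7 and the lysosomal membrane gene Cd63. For Sqstm1 it was Mepce (0.95), with Akr1b3 and Armc5. For Map1lc3a it was Hrc (0.94), which encodes a calcium-binding protein of the sarcoplasmic reticulum, with Slc3a2 and Aamp.

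Trim63 was closest to Gramd4 (0.94), then Uros and the thyroid hormone receptor gene Thra. Fbxo32 and Gabarapl1 shared their closest gene, Dpy19l3 (0.91 with each). Ptpre and Mgmt came next for Fbxo32, and the autophagy receptor gene Nbr1 (0.88) and Asb14 for Gabarapl1. Trim55 was closest to the phosphodiesterase gene Pde4b (0.91), then Atf6 and Ktn1, and Bnip3 to the cardiac transcription factor gene Gata6 (0.86), then Adnp2 and Ppp1r12b.

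The rest of the pathway was read through 7 lists. In none of them did a gene pass in any of the 6 comparisons, in either direction (edgeR; smallest adjusted p 0.757). Below, counts are genes with an estimate above 0 of those tested, in females and then in males, for the knockout minus the wild-type label; over all tested genes the medians were 0.026 and 0.018 on the log2 scale. Of 25 other ubiquitin ligase genes, 14 and 8 were above 0, with medians of 0.056 and -0.097. Cblb, a ligase that acts on receptor signalling, was at 0.17 ± 0.17 in females, and Fbxl22, a cardiac F-box gene, at 0.39 ± 0.23 in males. Cul7 had 0 reads and lies inside a same-strand gene, as Map1lc3b does.

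Of 35 proteasome and ubiquitin genes, 18 were above 0 in each sex, with medians of 0.0080 and 0.040. The proteasome activator gene Psme4 was at -0.44 ± 0.26 in males, and the ATPase subunit gene Psmc3 at -0.18 ± 0.17 in females. Of 30 genes of autophagosome formation, 18 and 13 were above 0, with medians of 0.040 and -0.018. Atg14, a subunit of the lipid kinase complex that starts the membrane, was at 0.28 ± 0.14 in females, and Gabarap at 0.36 ± 0.23 in males.

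Of 18 autophagy receptor and mitophagy genes, 11 and 7 were above 0, with medians of 0.050 and -0.088. Bnip3l, the close relative of Bnip3, stood at 31.9 ± 6.18 CPM (n = 4) in females labelled knockout and 24.6 ± 6.09 CPM (n = 3) in those labelled wild type, a difference of 0.37 ± 0.18. Its interaction of label and sex was 0.58 ± 0.24 (unadjusted p = 0.0289, adjusted p = 1, edgeR). Under the knockout label, the aggregate-clearing chaperone gene Hspb8 and the receptor gene Optn were at -0.59 ± 0.21 and -0.49 ± 0.18 in females minus males (adjusted p = 0.757 for both).

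Of 35 lysosome genes, 17 and 20 were above 0, with medians of -0.0032 and 0.012. Ctsd, the gene of cathepsin D, was at -0.34 ± 0.22 in females, and the cholesterol transporter gene Npc1 at -0.31 ± 0.17 in males. Of 29 regulators, 12 were above 0 in each sex, with medians of -0.035 and -0.038. Foxo1 was at 0.18 ± 0.10 in females, with 168 ± 16.5 against 148 ± 6.47 CPM, and Hdac4 at -0.26 ± 0.16 in males. Myog had 0 reads.

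Other genes known to respond to FoxO factors, fasting or glucocorticoids had estimates on different sides in the sexes, though none passed. In females 20 of 26 were above 0, with a median of 0.11, and in males 8 of 26, with a median of -0.16. The interaction was above 0 in 21 of 26, with a median of 0.29, against 0.019 over all tested genes, 47.8% of which were below 0 (edgeR, 0 genes of the list at an unadjusted p below 0.05). Other lists leaned the same way: 18 of 25 other ligase genes (median 0.11), 20 of 29 regulators (0.034) and 12 of 18 receptor and mitophagy genes (0.069). Autophagosome formation had 17 of 30 above 0 (0.10), and the proteasome and lysosome lists 17 of 35 each. Cdkn1b and Trp53inp1 were at 0.56 ± 0.30 and 0.79 ± 0.47 in the interaction. In females minus males under the knockout label, Txnip stood at 248 ± 176 against 89.5 ± 19.2 CPM, a difference of 1.47 ± 0.57 (adjusted p = 0.757, edgeR). Fbxo32 and Trim63, the best known genes of this programme, were at 0.30 ± 0.28 and -0.23 ± 0.26 in the interaction. The genes of a list share their samples, so these counts describe the list and are not a test of it.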

How the data were processed

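Per the submitters' processing notes, the authors used STAR 2.5.3a, featureCounts 1.5.0 and the GRCm38 (mm10) build. The deposited table holds raw counts per gene, not normalised. Gene length equals end minus start plus 1 in 100% of its 55536 genes, so counts span introns. A smaller deposited table repeats 16610 of these genes with identical counts and was not used.

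In R 4.3.3, filterByExpr of edgeR 4.0.16 kept 17455 genes. Libraries were scaled by TMM, and 1 quasi-likelihood model with a mean for each group was fitted to the 15 libraries (robust, 11 residual degrees of freedom). A gene passed below 0.05 after Benjamini-Hochberg adjustment. Standard errors come from the estimate and its F statistic. The code was tested on simulated data with less spread between libraries than these data. That check concerns the code and not which differences could be found here. Log2 CPM used a prior count of 2. The floor is 3 counts, and intervals cover counting error and library spread only.

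The members and lists were chosen with earlier results of these data known. All 10 members are named, with up to 2 genes of each list by smallest p per comparison, of which a part is printed, and the 3 genes most like each member. Alternatives were RLE scaling, no filter, DESeq2 1.42.0, limma-voom (limma 3.58.1), the replicate number as a block, a marker class term, low-marker libraries alone, omission of 3 libraries holding other-sex reads, and omission of each library.

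Replicate numbers come from the sample titles. Same-numbered libraries deviated from their group means together, with correlations of 0.169 to 0.699 between the male groups, 0.503 to 0.829 between knockout-labelled females and males and 0.179 to 0.842 between wild-type-labelled ones. Between the female groups they were -0.41 to 0.708, so these do not count as paired.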

Additional observations from a re-analysis of the deposited data

How the results depend on the processing

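No member passed in any of the 6 comparisons under any alternative: 8 other settings and the omission of each of the 15 libraries in turn all gave 0 of 9. The smallest adjusted p of a member was 0.0872 (Sqstm1, females minus males under the knockout label, DESeq2). With the replicate number as a block that value was -0.46 (adjusted p = 0.12), and the block changed no call of a member in any comparison. Counts over the whole table moved more. In females minus males under the knockout label edgeR called 4 genes, against 57 with DESeq2, 13 with the block, 11 with a marker class term, 10 with limma-voom, 7 without the 3 libraries holding other-sex reads, 2 without the low-count filter, 1 in low-marker libraries alone and 0 to 10 without 1 library. Under the wild-type label 0 became 14 with DESeq2 and 6 with limma-voom or without the 3 libraries. Between the labels, 2 calls in males became 4 with DESeq2, 0 with RLE scaling, in low-marker libraries alone or without the 3 libraries, and 0 or 1 without 1 library. In the average, 3 became 7 with DESeq2, 2 in low-marker libraries alone, 1 without the 3 libraries and 2 to 4 without 1 library.

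Of 1242 fold changes of members under alternatives, 83 had the opposite direction to the reported one, at most 0.39 in size and none called; for these the cause was not tested. With low-marker libraries alone, the label difference was 0.12 (Trim63), -0.041 (Gabarapl1) and -0.39 (Ctsl) in females and 0.00625 (Fbxo32) and -0.13 (Ctsl) in males, and Ctsl in females minus males under the knockout label was -0.00734. Without the 3 libraries holding other-sex reads, the label difference was 0.054 (Trim63) and 0.00550 (Trim55) in females and 0.032 (Fbxo32) and -0.046 (Trim54) in males. In females minus males it was then -0.22 (Ctsl, knockout label), and -0.083 (Trim55) and -0.028 (Ctsl) under the wild-type label. The marker class term gave 0.024 for Fbxo32 between the labels in males and -0.00707 for Trim55 in females minus males under the knockout label, where limma-voom gave -0.000475.

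With 1 library left out, the label difference in females ranged from -0.16 to 0.096 (Trim63), -0.31 to 0.010 (Trim54), -0.032 to 0.14 (Bnip3), -0.027 to 0.20 (Gabarapl1) and -0.22 to 0.43 (Ctsl). In males it ranged from -0.16 to 0.10 (Fbxo32), -0.054 to 0.17 (Trim54), -0.23 to 0.060 (Bnip3), -0.033 to 0.21 (Gabarapl1) and -0.00308 to 0.31 (Ctsl). Females minus males ranged from -0.13 to 0.14 (Trim55) and -0.22 to 0.40 (Ctsl) under the knockout label, and from -0.094 to 0.16 (Trim55) and -0.044 to 0.30 (Ctsl) under the wild-type label.

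Every counted member had at least 173 reads in each library, and its biological spread between libraries of a group was 15.8% or more. Of 27 sets of a member in a group of 4 libraries, 0 had a library far enough from the others to pass Dixon's test.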
